A study of Danio rerio with 4 samples.

Results

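The 8 genes described here encode the NF-κB subunits (*nfkb1*, *nfkb2*, *rela*, *relb* and *rel*) and 3 of their inhibitors (*nfkbiaa*, *nfkbiab* and *nfkbiz*). They were taken by exact symbol from a table of 20984 zebrafish genes, and each was found once. Bulk RNA-seq was performed on 4 single ventricles after cryoinjury, in which a part of the ventricle wall is killed by freezing: 2 from wild types and 2 from *cd74a; cd74b* mutants. All fish were of the AB strain and 3 to 12 months old. The mutants carried small deletions in both *cd74* paralogs (alleles bns454 and bns456), placed in the region that encodes the MHC class II interaction domain. Wild types and mutants were the progeny of a wild-type and a double mutant sibling batch, each crossed with double heterozygotes. The genotypes thus came from different crosses, and differences between crosses and between genotypes cannot be told apart. The time of collection is 120 hpci (hours post-cryoinjury) in the description of the experiment and 7 days in the design text deposited with the data. Each genotype had 1 female and 1 male, but which library came from which sex is not stated, and no uninjured ventricle was part of the comparison. The comparison asks how gene expression in the injured ventricle differs when Cd74, the chaperone that assembles and traffics MHC class II molecules, is impaired.

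NF-κB is a family of dimeric transcription factors built from proteins that share a Rel homology domain. The products of *nfkb1* and *nfkb2* are precursors that are processed to DNA-binding subunits (p50 and p52), whereas RelA, RelB and c-Rel, encoded by *rela*, *relb* and *rel*, also carry an activation domain. In the resting cell, IκB proteins hold the dimers in the cytoplasm until the IκB kinase (IKK) complex marks them for degradation. RelA with p50 is the classical dimer of the inflammatory response, and RelB with p52 is the dimer of the slower, alternative route. In mouse B cells, the intracellular part of CD74 is itself known to activate RelA.

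In *cd74a; cd74b* mutants, mRNA of the classical dimer genes was lower than in wild types, at 20.5% of the wild-type mean for *nfkb1* and 17.4% for *rela*. The genes of the alternative dimer, *nfkb2* and *relb*, were at 83.3% and 92.6% of the wild-type mean, and *rel* was at 73.3%. These values are normalized counts, that is, whole numbers obtained by dividing the reads of a gene by the size factor of the library. They are not divided by transcript length, so each gene is compared between ventricles and not with other genes. All 8 genes had a mean of at least 10 over the 4 ventricles and were tested with limma on the log2(normalized count + 1) scale together with all 16065 genes that passed this filter. A call required a Benjamini-Hochberg adjusted p-value under 0.05 together with a log2 fold change of 0.59 or more in either direction. By this rule 2 of the 8 genes were lower (25.0%), against 7.44% of all tested genes, and 0 were higher, against 2.7%. At an unadjusted limma p-value under 0.05, 3 of the 8 were lower and 0 higher, against 2769 and 1885 of the 16065 tested genes. In 7 of the 8 genes each mutant was below each wild type, against 29.4% of all tested genes. The median log2 fold change was -0.41 for the 8 genes and 0.03 for all tested genes. Mean normalized counts over the 4 ventricles were 66.0 for *nfkb1* and 57.25 for *rela*, but 456.0 for *nfkb2* and 456.5 for *relb*. In the tenth of tested genes by mean that holds *nfkb1* and *rela*, 14.5% were lower, against 2.43% in that of *nfkb2* and *relb*. The part of expression level in the contrast between these pairs was not tested. The study itself singled out *nfkb1* and *rela* from these same libraries, so their decrease is no independent evidence for the group.

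The 4 libraries summed to between 4123819 and 4382529 normalized counts, and the highest value of any gene was 6864. The uneven use of whole numbers that rounding left among low values places the number of counted reads between an estimated 4016600 and 4490885 per library. The targeted genes matched the labels, since *cd74a* had 837 and 913 in wild type and 408 and 401 in mutants, and *cd74b* had 622 and 678 against 131 and 117. Of the 20984 genes, 876 and 572 were at 0 in wild type and 903 and 1405 in mutants, with the most in the second mutant. The cardiomyocyte genes *myl7*, *tnnt2a* and *cmlc1* were detected in every ventricle, with sums of 2625 and 2830 in wild type and 2794 and 3265 in mutants.

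**Figure D1:**
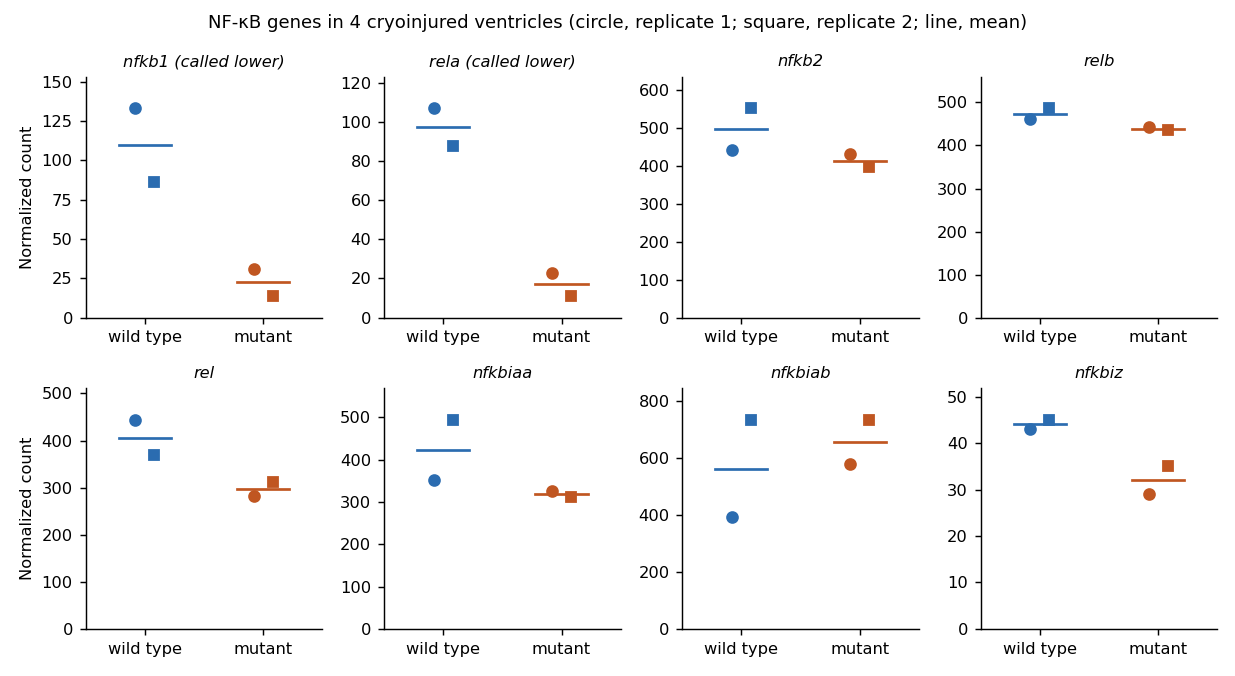
Normalized count of each of the 8 NF-κB genes in the 2 wild-type and 2 *cd74a; cd74b* mutant ventricles, with the vertical axis starting at 0 in each panel; circles are replicate 1, squares replicate 2 and lines the group means. For *nfkb1* and *rela* both mutants lie far below both wild types, whereas for *nfkbiab* the groups overlap.

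*nfkb1*, which encodes the p105 precursor of p50, lies on the reverse strand of chromosome 14 from 49811926 to 49859823 (danRer11), 46.8 Mb from the edited *cd74a* on the same chromosome. Its normalized counts were 133 and 86 in wild type and 31 and 14 in mutants. Each mutant was below each wild type, and the second ventricle was the lower of its pair in both genotypes. The log2 fold change was -2.30 (standard error 0.45, 95% confidence interval -3.36 to -1.24, adjusted p = 0.0244, limma). The lowest value, 14, corresponds to an estimated 13 reads, whose counting error alone spans 7.47 to 24.0 on the normalized scale (exact Poisson 95% interval), still below the 68.8 to 107 of the lower wild type. Such intervals leave out the variation between fish.

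*rela*, on the reverse strand of chromosome 7 from 778297 to 804515, encodes the activating partner of p50. It had normalized counts of 107 and 88 in wild type and 23 and 11 in mutants. As for *nfkb1*, the groups were clearly apart and the second mutant had the lowest value, an estimated 10 reads. The log2 fold change was -2.53 (standard error 0.43, 95% confidence interval -3.54 to -1.52, adjusted p = 0.0172, limma). Without any filter on low values the adjusted p-value rose to 0.0847 for *nfkb1* and 0.0681 for *rela*, and without the mean-variance trend to 0.0762 and 0.0529, so both calls were lost under either setting. With 1 ventricle left out no gene of the table passed, and the log2 fold change of *nfkb1* was -1.99 or -2.61 without the first or second wild type and -2.85 or -1.75 without the first or second mutant, while that of *rela* was -2.39, -2.67, -3.03 and -2.03 in the same order.

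*nfkb1* and *rela* followed the ventricles in the same order, with the first wild type highest, then the second wild type, the first mutant and the second mutant. Their ratio was 1.24 and 0.977 in wild type and 1.35 and 1.27 in mutants, so the groups did not differ by more than the wild types differed from each other. The same order of the 4 ventricles was found for 42.3% of all genes called lower and for 11.6% of all tested genes. A call as lower already favors the mutants in the lowest places, so part of this gap follows from the selection. The second mutant was at least 1.5 times below the first, as for *nfkb1* and *rela*, in 45% of the genes called lower and in 14.2% of all tested genes. In the tenth of tested genes with means between 40.25 and 68.5, which holds both, 14.5% were lower, against 7.44% of all tested genes. Of the 233 genes called lower there, 40.3% had the same order of ventricles. In 52.8% of them the second mutant was at least 1.5 times below the first. The part of the second mutant library and of expression level in the decrease of *nfkb1* and *rela* was not tested.

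The remaining subunit genes did not pass the threshold. *nfkb2*, on chromosome 13 from 22717366 to 22735547, encodes the p100 precursor of p52. It had 443 and 552 normalized counts in wild type and 431 and 398 in mutants, with the higher mutant just below the lower wild type. Its log2 fold change of -0.26 had a 95% confidence interval from -0.65 to 0.14 (adjusted p = 0.355, limma).

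*relb*, on chromosome 15 from 17100412 to 17125217, encodes the partner of p52. It had 462 and 486 in wild type and 443 and 435 in mutants. The 4 ventricles lay close together, and the log2 fold change was -0.11 with a 95% confidence interval from -0.45 to 0.23 (adjusted p = 0.653, limma). The intervals of *nfkb2* and *relb* did not overlap those of *nfkb1* and *rela*, although the difference between genes was not itself tested.

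*rel* encodes c-Rel, in mammals the subunit of lymphocytes and myeloid cells. It lies on chromosome 13 from 25795511 to 25819825, 3.06 Mb from *nfkb2*. Its normalized counts were 444 and 369 in wild type and 283 and 313 in mutants, so the groups were separate. The log2 fold change was -0.44 (standard error 0.17, 95% confidence interval -0.84 to -0.04), with an unadjusted p-value of 0.0346 and a limma adjusted p-value of 0.139.

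Ratios between subunit genes were formed within each ventricle, where differences in scaling cancel. The ratio of *nfkb1* to *nfkb2* was 0.300 and 0.156 in wild type and 0.0719 and 0.0352 in mutants. The ratio of *rela* to *relb* was 0.232 and 0.181 against 0.0519 and 0.0253. In both ratios the highest mutant was well below the lowest wild type. This separation follows from the choice of a called gene over a gene that changed little, so it adds no support to the single-gene values. The ratio of *nfkb2* to *relb* was 0.959 and 1.14 in wild type and 0.973 and 0.915 in mutants, and these ranges overlapped. No p-value is given for these ratios, because the smallest that an exact two-sided permutation test of 2 against 2 ventricles allows is 0.33.

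**Figure D2:**
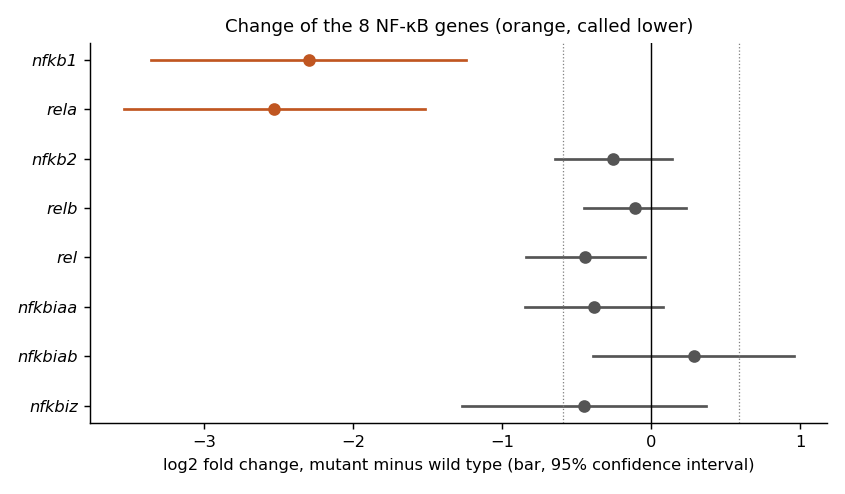
Log2 fold change (*cd74a; cd74b* mutant minus wild type) of the 8 NF-κB genes on the log2(normalized count + 1) scale, with points for limma's estimate and bars for its 95% confidence interval; dotted lines mark the fold-change limit of 0.59 in either direction. The intervals of *nfkb1* and *rela* end at -1.24 and -1.52, and those of *nfkb2*, *relb* and the 3 inhibitor genes include 0.

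The inhibitor genes differed less than *nfkb1* and *rela* and were not called, with *nfkbiaa* and *nfkbiz* lower in mutants by mean and *nfkbiab* higher. *nfkbiaa* and *nfkbiab* are the zebrafish paralogs of the IκBα gene, whose mammalian counterpart is both an inhibitor and a rapidly induced target of NF-κB. *nfkbiaa*, on chromosome 20 from 16881883 to 16884737, had 353 and 494 normalized counts in wild type and 327 and 312 in mutants. Its mutants were close to each other and to the first wild type, and the log2 fold change of -0.39 had a 95% confidence interval from -0.85 to 0.08 (adjusted p = 0.241, limma). It overlaps *psma6b* on the opposite strand, and reads overlapping several genes were excluded by the authors' counting.

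*nfkbiab*, on chromosome 17 from 12942021 to 12949754, had 392 and 734 normalized counts in wild type and 581 and 735 in mutants. The second ventricle was the higher in each genotype and the groups overlapped. The log2 fold change was 0.28 (95% confidence interval -0.39 to 0.96, adjusted p = 0.549, limma) and changed to -0.17 without the first wild type. The ratio of *nfkbiaa* to *nfkbiab* was 0.901 and 0.673 in wild type and 0.563 and 0.424 in mutants, lower in both mutants. *nfkbiz*, on chromosome 1 from 18716 to 23389, encodes IκBζ, a nuclear IκB protein that in mammals binds p50 and serves as a cofactor for secondary target genes. It had 43 and 45 in wild type and 29 and 35 in mutants. These low values separated the groups, but the log2 fold change of -0.45 had a 95% confidence interval from -1.27 to 0.37 (adjusted p = 0.429, limma).

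The genes also differed in the pathways listed with them. *rela*, *nfkbiaa* and *nfkbiab* shared the KEGG terms for Toll-like, NOD-like and RIG-I-like receptor signaling, cytosolic DNA sensing and apoptosis, and *rela*, *nfkb2* and *relb* shared MAPK signaling. No KEGG pathway is listed for *nfkb1*, *rel* or *nfkbiz*, so a pathway count from this annotation would include only 1 of the lower genes.

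Leukocyte marker lists differed in how far they were lower in the mutant ventricles, against 7.44% of all tested genes called lower and 29.4% with each mutant below each wild type. All 5 pan-leukocyte genes (*ptprc*, *coro1a*, *lcp1*, *laptm5* and *rac2*) were below both wild types in both mutants, and their summed normalized counts were 3611 and 3065 in wild type and 2359 and 2519 in mutants, although only *rac2* was called lower. Macrophage markers summed to 5497 and 5033 against 3528 and 3465, with 3 of 8 called lower and all 8 below both wild types in both mutants. The called marker *csf1ra* (937 and 762 against 364 and 345) starts at 3143337 on chromosome 14, near the edited *cd74a*, which ends at 3052361. The part of this position in its decrease was not tested. Neutrophil markers (*mpx*, *lyz*, *npsn*, *cpa5* and *il6r*) summed to 631 and 701 against 256 and 259, with 3 of 4 tested genes called lower. Much of these sums came from *il6r*, which was called (187 and 280 against 104 and 121). *cpa5* was not called and overlapped between genotypes (20 and 82 against 23 and 19). How specific these genes are to neutrophils in the ventricle was not tested. T cell markers summed to 223 and 318 against 100 and 90, but this difference came from *cd4-1*, the 1 gene called of 5 tested, with 171 and 162 against 21 and 19. Without *cd4-1* the sums were 52 and 156 against 79 and 71 and overlapped, and the median log2 fold change of all 5 was 0.03. B cell markers summed to 10 and 130 against 9 and 13, so only the second wild type stood apart, with 0 of 2 tested genes called by limma (0 also at an unadjusted p-value under 0.05); *pax5* was listed at 0 in every ventricle but the second wild type. Endothelial and endocardial markers summed to 5884 and 6048 in wild type and 5924 and 5429 in mutants, with members in both directions. Of these 5, *pecam1* was called higher (285 and 259 against 542 and 529, log2 fold change 0.98, adjusted p = 0.0143, limma), and *cdh5* was not called (1815 and 2171 against 1685 and 1427, log2 fold change -0.36). The study had already named *csf1ra* and *cd4-1* as lower in these libraries, so their calls are no independent evidence for the marker lists. In whole ventricles, fewer leukocytes and less RNA per leukocyte cannot be told apart.

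Set against the pan-leukocyte markers of the same ventricle, *rel* hardly varied. It had 123 and 120 normalized counts per 1000 summed marker counts in wild type and 120 and 124 in mutants. *nfkb1*, in contrast, had 36.8 and 28.1 in wild type and 13.1 and 5.56 in mutants. *rela* had 29.6 and 28.7 against 9.75 and 4.37. Per 1000 summed macrophage marker counts, *rela* had 19.5 and 17.5 in wild type and 6.52 and 3.17 in mutants. Per 1000 summed neutrophil marker counts, *nfkb1* had 211 and 123 against 121 and 54.1, and *rela* had 170 and 126 against 89.8 and 42.5, with the first mutant near the second wild type for *nfkb1*. The ratio of *nfkb1* to *cd4-1*, formed after the values were seen, was 0.778 and 0.531 in wild type and 1.48 and 0.737 in mutants, and that of *rela* to *cd4-1* was 0.626 and 0.543 against 1.095 and 0.579, so neither was lower in mutants. *rel* was flat only against some markers. Per 1000 summed neutrophil marker counts it had 704 and 526 in wild type and 1105 and 1208 in mutants. Per 1000 summed cardiomyocyte marker counts it had 169 and 130 against 101 and 95.9. Its ratio to *cd4-1* was 2.60 and 2.28 against 13.5 and 16.5. The outcome of such a division thus differed between the markers chosen, and the part of leukocyte content in the decrease of *nfkb1* and *rela* was not tested.

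**Figure D3:**
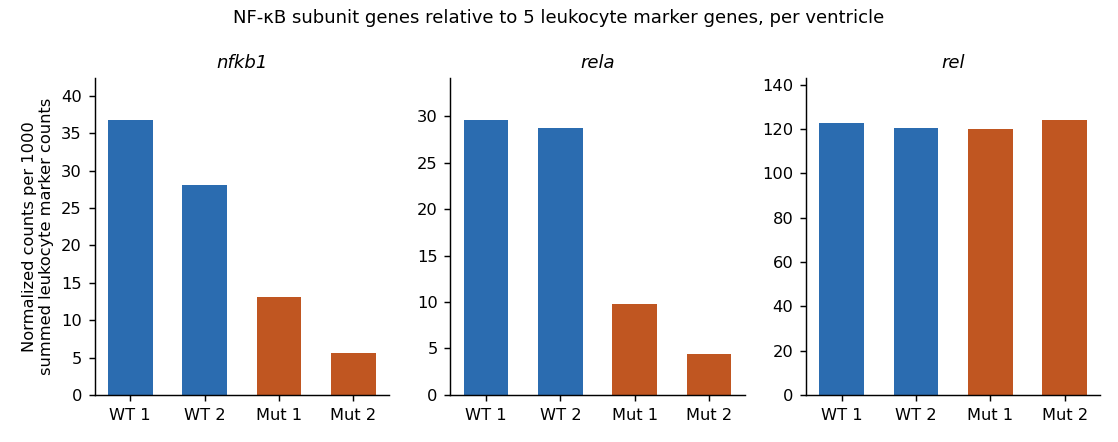
Normalized counts of *nfkb1*, *rela* and *rel* per 1000 summed normalized counts of 5 pan-leukocyte marker genes, with 1 bar per ventricle and axes starting at 0 (WT, wild type; Mut, *cd74a; cd74b* mutant). The 4 bars of *rel* lie between 120 and 124, whereas the highest mutant bar is 13.1 for *nfkb1* and 9.75 for *rela*, below wild-type bars of at least 28.1 and 28.7.

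Around the subunits, 78 genes of the pathway were examined in 4 lists, and 67 of them passed the filter. Of these, 10 were lower in mutants (14.9%, against 7.44% of all tested genes) and 1 was higher (1.49%, against 2.7%), with a median log2 fold change of -0.07. The lists were chosen with earlier results of these data known, and the study had already named *cd40* as lower in these libraries. Their share of lower genes is thus no independent evidence for the pathway. Among all tested genes this share also differed by level, with 14.5% at means of 40.25 to 68.5 and 2.43% at 411.0 to 634.75. The part of expression level in the share of the lists was not tested. A further list held 8 NFAT relatives. In the list of the IKK complex with its upstream adaptors and kinases, 4 of 24 genes were lower (16.7%) and 1 was higher (4.17%). Among all tested genes these shares were 7.44% and 2.7%. The other 19 genes of the list were not called, and the median log2 fold change was -0.27. At an unadjusted limma p-value under 0.05, 8 were lower and 2 higher, against 2769 and 1885 of all 16065 tested genes. *ikbkb*, which encodes the IKKβ kinase of the classical route, had 155 and 112 normalized counts in wild type and 39 and 24 in mutants (log2 fold change -2.07 with a standard error of 0.35, adjusted p = 0.0171, limma). The other members of the complex did not follow it. *chuk*, the gene of IKKα, which drives the alternative route, had 464 and 548 against 578 and 611, and *ikbkg*, the gene of the scaffold NEMO, had 407 and 387 against 444 and 442, and neither passed (adjusted p = 0.349 and 0.513, limma; named after their values were seen).

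Of the adaptors that link receptors to IKK, *card9*, which acts downstream of C-type lectin receptors in mammalian myeloid cells, had 264 and 203 against 98 and 104 (log2 fold change -1.19, adjusted p = 0.0210, limma). *ripk1l*, a gene related to the kinase RIPK1 of the TNF receptor complex, had 131 and 83 against 41 and 32 (log2 fold change -1.50, adjusted p = 0.0361, limma). Both were separate between genotypes. *tab2*, which encodes an adaptor of the kinase TAK1, was the 1 higher gene, with 381 and 352 against 553 and 594 (log2 fold change 0.64, adjusted p = 0.0383, limma). The TAK1 gene *map3k7* had 637 and 602 against 656 and 737, and *tbk1*, an IKK-related kinase, had 571 and 472 against 600 and 633. They had the highest mean normalized counts among the genes of the list that were not called.

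Among the 9 tested receptors and adaptors that feed the alternative route or the TNF response, 2 were lower and 0 higher by limma, against 7.44% and 2.7% of all tested genes. At an unadjusted limma p-value under 0.05, 3 were lower and 1 higher, against 2769 and 1885 of all 16065 tested genes. *tnfrsf1b*, which encodes TNF receptor 2, had 172 and 170 normalized counts in wild type and 58 and 36 in mutants (log2 fold change -1.88 with a standard error of 0.30, adjusted p = 0.0146, limma). The costimulatory receptor gene *cd40* had 218 and 237 against 98 and 74. *tnfrsf1a*, the gene of TNF receptor 1, had 601 and 639 against 618 and 674, so its groups overlapped (named after its values were seen). The apoptosis inhibitor genes *birc2* (859 and 891 against 936 and 1110) and *xiap* (586 and 554 against 747 and 789) were not called.

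Other IκB proteins and feedback inhibitors included 3 lower genes of 18 tested and 0 higher by limma, against 7.44% and 2.7% of all tested genes. Their median log2 fold change was 0.06. At an unadjusted limma p-value under 0.05, 3 were lower and 2 higher, against 2769 and 1885 of all 16065 tested genes. *tnfaip3*, the gene of the ubiquitin-editing enzyme A20, which ends NF-κB activation in mammals, had 31 and 65 normalized counts in wild type and 2 and 3 in mutants. The ubiquitin ligase genes *itchb* (43 and 59 against 11 and 3) and *itcha* (101 and 131 against 49 and 50), whose mammalian counterpart acts together with A20, were lower as well (adjusted p = 0.0340 and 0.0369, limma). The mutant means of *tnfaip3* (2.5) and *itchb* (7.0) were below the filter value of 10, so these genes passed the filter through their wild-type values. *tax1bp1b*, of another A20 partner, had 1157 and 1273 against 1372 and 1621, and *tnip1*, of the A20-binding protein ABIN1, had 948 and 896 against 821 and 854, and neither was called. The IκB genes *nfkbib* (342 and 457 against 420 and 419), *nfkbie* (258 and 291 against 220 and 261) and *bcl3* (81 and 56 against 65 and 59) overlapped between genotypes and were named after their values were seen. *nfkbil1*, also named after its values were seen, had 85 and 82 against 114 and 114 and was not called. Each mutant was below each wild type in 4 of the 18 tested genes and above in 7. Among all 16065 tested genes these counts were 4724 and 4904.

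In a list of genes known as NF-κB targets in mammals or zebrafish, the share called lower was near that of all genes. The list leaves out *nfkbiaa* and the lower feedback inhibitor gene *tnfaip3*, which were counted in other groups. Its share thus depends on how genes were allotted to the lists. Of its 23 genes with values, 16 passed the filter. Of the 16 tested, 1 was lower (6.25%, against 7.44% of all tested genes) and 0 were higher by limma, and the median log2 fold change was -0.07. At an unadjusted limma p-value under 0.05, 1 was lower and 0 higher, against 2769 and 1885 of all 16065 tested genes. The lower gene was *cxcl8a*, which encodes a neutrophil-attracting chemokine, with 88 and 84 normalized counts in wild type and 29 and 22 in mutants (log2 fold change -1.73 with a standard error of 0.33, adjusted p = 0.0228, limma). The adhesion molecule gene *vcam1b* had 1006 and 1285 against 1038 and 1328. *socs3a*, a feedback inhibitor of cytokine signaling, had 348 and 853 against 782 and 1031. These genes had the highest mean normalized counts of the targets, and each overlapped between genotypes. The inflammatory cytokine genes *il1b* (88 and 21 against 12 and 18) and *tnfa* (4 and 10 against 2 and 3), named after their values were seen, were low and variable; *tnfa* did not reach the filter and was not tested. Of the genes of the 5 lists, 13 of which were called, 0 were called without a filter on low values and 4 without the mean-variance trend. Without the filter, the smallest limma adjusted p-value of any gene was 0.0518. At an unadjusted p-value under 0.05 there, 17 list genes were lower and 6 higher, against 3081 and 1934 of all 20984 genes.

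**Figure D4:**
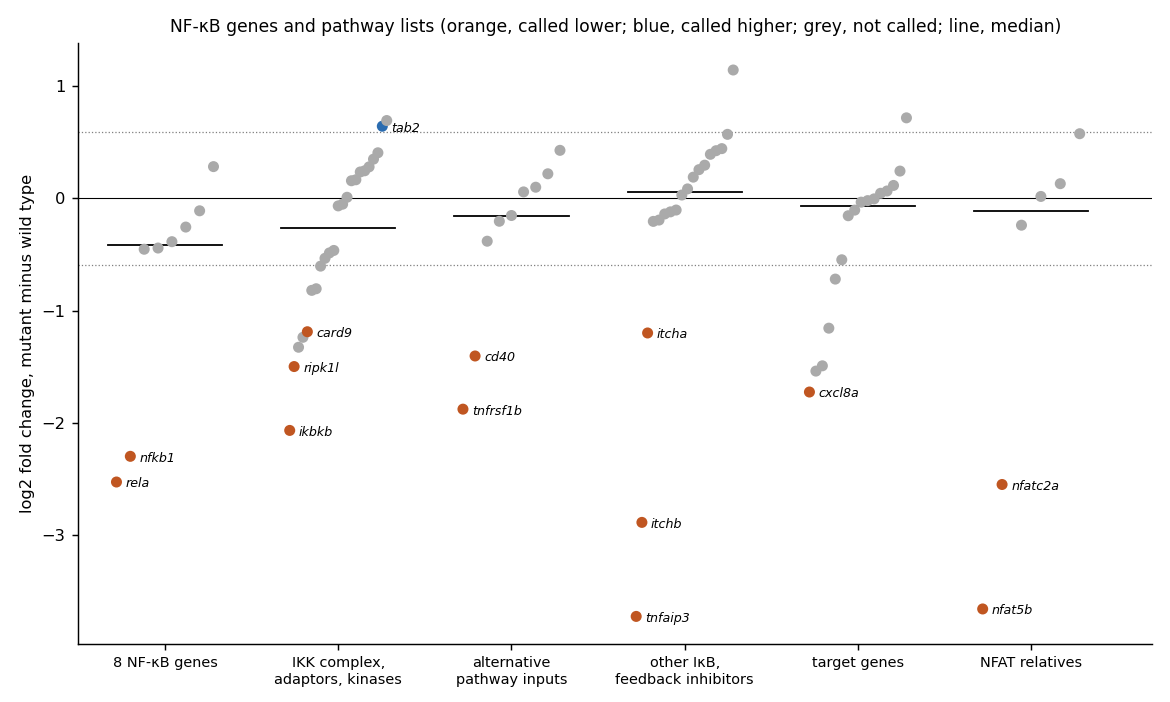
Log2 fold change (*cd74a; cd74b* mutant minus wild type) of tested genes among the 8 NF-κB genes and 5 lists of pathway genes and relatives; 1 point is 1 gene, colored by its call with limma, horizontal lines are the medians of the full lists, and dotted lines mark 0.59 in either direction. The called genes lie well below most others of their list, with *tab2* the exception, and list medians range from -0.41 to 0.06.

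The NFAT genes, whose proteins share the Rel homology domain but are regulated by calcium and calcineurin (or, for NFAT5, by osmotic stress in mammals), had 2 lower genes of 6 tested and 0 higher by limma, against 7.44% and 2.7% of all tested genes. At an unadjusted limma p-value under 0.05, 2 were lower and 1 higher, against 2769 and 1885 of all 16065 tested genes. *nfat5b* had 146 and 106 normalized counts in wild type and 13 and 6 in mutants (log2 fold change -3.66 with a standard error of 0.46, adjusted p = 0.0101, limma). *nfatc2a* had 117 and 104 against 23 and 14 (log2 fold change -2.55, adjusted p = 0.0121, limma). *nfatc1*, known from the endocardium, had 435 and 412 against 411 and 313, and *nfatc3a* had 259 and 247 against 289 and 266, and neither passed.

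The genes whose pattern over the 4 ventricles was most like that of a lower subunit were found by the root mean square difference between log2 profiles centered on their means. For *nfkb1* these were *si:dkey-103i16.6* (0.0738), *myo1g* (0.0844) and *nod1* (0.0855), which had normalized counts of 59, 37, 15 and 6, of 98, 64, 20 and 9, and of 132, 101, 33 and 15 in the first and second wild type and the first and second mutant. *myo1g* encodes a myosin of leukocytes in mammals, and *nod1* an intracellular sensor of bacterial peptidoglycan. For *rela* they were *sema3gb* (0.0519), *mlec* (0.0654) and *GNAZ* (0.0674), of which *sema3gb*, a secreted semaphorin gene, had 605, 477, 122 and 61. *rela* was the NF-κB gene closest to *nfkb1* (0.170), with 23 of all tested genes closer still. With 4 ventricles this likeness is a description only.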

How the data were processed

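Per the labels, the authors used Trimmomatic 0.39 for trimming, STAR 2.7.9a for alignment to danRer11 with Ensembl release 104, and featureCounts 2.0.2 for counting, which left out reads over several genes or regions. Each deposited value is a score per gene and ventricle, a read count that the authors normalized with DESeq2 1.30.0 and then rounded. Library preparation was stranded, but the strand setting of the counting is not given in the sources used here. Since rounded, normalized values are not counts, no count model was fitted.

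Genes with a mean of at least 10 were compared with limma 3.58.1 (R 4.3.3, mean-variance trend, no block) on log2(normalized count + 1), with Benjamini-Hochberg adjustment over all of them and the thresholds of the study's methods. The code of the test was checked on simulated data with 200 changed genes, which does not show how reliable the calls are in these libraries. The p-values measure the spread between single fish, 2 per genotype, with variance information shared across genes. They do not measure differences between the crosses from which the genotypes came. Log2 values of library pairs correlated between 0.849 and 0.963.

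The 8 genes and the pathway and marker lists were chosen with earlier results of these data known. Of the genes in the lists, 8 had no row under their symbol and 2 (*otulina* and *actc1a*) had 2 rows each and were left out. Named in the text are all 8 genes, the targeted genes and the called genes of each list (up to 4 in each direction, by p-value). Also named are the 2 genes of each list with the highest mean normalized count that were not called. The 3 genes nearest each lower subunit in pattern and any gene overlapping a member are named too. Exceptions are marked, and 1 gene that this rule names is counted in its list but not reported here. Size factors were estimated from the rounding of low values with Python 3.11.15. Alternatives were other pseudocounts (0.1 and 5), other filters (none and a minimum mean of 50), limma with no trend or with voom weights, rescaling to equal totals or upper quartiles, cyclic loess, a replicate block, leaving out each ventricle and a log2 limit of 1.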

Additional observations from a re-analysis of the deposited data

How the results depend on the processing

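Without a filter on low values, limma called 0 genes in either direction, although 3081 had an unadjusted p-value under 0.05 with lower and 1934 with higher values in mutants. The counts were then 0 for lower NF-κB members and 0 and 0 for lower and higher pathway genes (the 4 pathway lists and the NFAT relatives), and the log2 fold changes of *nfkb1* (-2.30) and *rela* (-2.53) did not move. Without the mean-variance trend, 461 genes were lower and 82 higher, with 0 of the 8 NF-κB genes called and 4 lower and 0 higher pathway genes. At an unadjusted limma p-value under 0.05 there, 2 of the 8 had lower values, against 2611 of the 16065 tested genes. The log2 fold changes were again -2.30 for *nfkb1* and -2.53 for *rela*. A replicate block gave 740 lower and 215 higher genes and 0 higher pathway genes, and both subunits kept their calls. The replicate numbers belong to different fish, and after subtraction of the group means the ventricles of equal number correlated at -0.066 across genes. The block ended the calls of *ripk1l*, *itcha*, *itchb* and *tab2*. A log2 limit of 1 left 238 higher genes and 0 higher pathway genes. The count of higher pathway genes was 2 with a pseudocount of 5 or a minimum mean of 50, and 0 after cyclic loess normalization, which also turned *vcam1b* to -0.0747. A minimum mean of 50 left *nfkbiz*, *tnfaip3* and *itchb* untested.

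With any ventricle left out, all counts of called genes were between 0 and 0, for all genes, the NF-κB members and the pathway genes alike. A fit with 1 ventricle in a genotype assumes that it varies like the other genotype. The log2 fold change then ranged from -2.85 to -1.75 for *nfkb1*, from -3.03 to -2.03 for *rela* and from -0.17 to 0.74 for *nfkbiab*. That of *vcam1b* ranged from -0.13 to 0.22. In the other alternatives the log2 fold change lay between -2.35 and -2.08 for *nfkb1* and between -2.60 and -2.27 for *rela*, and both were called in 8 of 10. The direction of all 8 NF-κB genes was kept in these. The estimated 10 to 33 reads of *nfkb1* and *rela* in each mutant limit their precision.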
